A study of Mus musculus with 2 samples.

Results

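The genes described here are the 4 ligands Vegfa, Vegfb, Vegfc and Pgf, the 3 receptors Flt1, Kdr and Flt4, and the co-receptors Nrp1 and Nrp2 of the vascular endothelial growth factor (VEGF) family. They were found by symbol among the features of both libraries, and all 9 were present among 31253 features. Each was followed across the cell classes of the abdominal aorta and between the libraries. Both libraries were single-cell RNA profiles of abdominal aorta from mice given PPE to induce an aneurysm (porcine pancreatic elastase, an enzyme that degrades elastin). The Gsdme-KO library came from mice with a deletion of Gsdme throughout the body, and the WT library from C57BL/6J mice. Gsdme encodes gasdermin E, which forms pores in the plasma membrane once cut by a caspase. PPE and the tissue were common to both groups, and no aorta without PPE was analysed here. The sources used here state neither the age of the mice nor how many were pooled in a library. With 1 library per group no difference has a replicate check, no p-value is given, and every interval covers counting error only.

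VEGF-A is the main growth factor for blood vessel endothelium and acts mostly through the receptor tyrosine kinase VEGFR2, the product of Kdr. VEGFR1, the product of Flt1, binds VEGF-A, VEGF-B and placental growth factor (PlGF, the product of Pgf) with weak kinase activity, and its soluble form holds ligand back from VEGFR2. VEGF-C acts through VEGFR3, the product of Flt4, which drives growth of lymphatic vessels. Neuropilins 1 and 2 bind both VEGFs and class 3 semaphorins and act as co-receptors. In the aorta, small vessels of the adventitia and wall supply the outer layers, and VEGF-A is also made by myeloid cells and smooth muscle.

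The Gsdme-KO matrix had 9034 barcodes with 52532964 UMIs in all (a UMI, unique molecular identifier, is taken as 1 captured transcript). The WT matrix had 7736 barcodes with 38988898 UMIs, and 73 barcode sequences occurred in both. After filtering, 8784 Gsdme-KO and 7619 WT cells were left, with medians of 4062 and 3835 UMIs. Gsdme itself, the check of the labels, stood at 2.55 CPM (UMIs per 1000000 UMIs of the cells summed) over all Gsdme-KO cells, against 5.53 CPM in WT. It was lower in neutrophil-like cells (10.8 CPM in Gsdme-KO, 23.0 CPM in WT), and too sparse to compare in most classes. In monocyte-like cells the values ran against the label within their counting error, with 22 UMIs in Gsdme-KO and 5 in WT (ratio 2.60, 0.961 to 8.80), and in dendritic-like cells with 9 UMIs in Gsdme-KO and 3 in WT (2.33, 0.580 to 13.4). Transcript was thus still counted in the library labelled Gsdme-KO, and the labels do not say which exons the deletion removes. Cells fell into 27 clusters, of which 5, with 2714 cells, stayed unnamed, and 14 named classes or clusters held at least 50 cells in each library and were compared. Fibroblast-like clusters 3 and 5 and cycling-like cluster 19 were kept apart by number. Blood endothelial-like cells were 135 in the Gsdme-KO library and 102 in WT, and the smooth muscle-like class also carried a high fibroblast signal, its summed fibroblast markers reaching 51443 CPM in Gsdme-KO and 63764 CPM in WT.

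Promoter sequence is shown for the 2 receptors of VEGF-A, counted mostly in endothelial-like cells, and for the ligand with the most differences between libraries. Each line gives the 250 bases before the RefSeq start (build GRCm38.p6), and all 3 genes lie on the minus strand. Capitals mark AGGAAG, a longer form of the GGAA core read by ETS factors, and the GC box GGGCGG, on either strand. The shorter GGAA was not searched. The Kdr and Vegfa windows do hold it, or its reverse complement TTCC, in lower case.
Flt1, chr5:147726012-147726261: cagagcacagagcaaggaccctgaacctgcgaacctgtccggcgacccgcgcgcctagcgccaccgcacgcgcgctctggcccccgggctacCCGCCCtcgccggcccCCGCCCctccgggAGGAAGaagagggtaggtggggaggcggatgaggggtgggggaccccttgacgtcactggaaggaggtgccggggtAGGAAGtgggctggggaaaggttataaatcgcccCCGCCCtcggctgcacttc
Kdr, chr5:75978456-75978705: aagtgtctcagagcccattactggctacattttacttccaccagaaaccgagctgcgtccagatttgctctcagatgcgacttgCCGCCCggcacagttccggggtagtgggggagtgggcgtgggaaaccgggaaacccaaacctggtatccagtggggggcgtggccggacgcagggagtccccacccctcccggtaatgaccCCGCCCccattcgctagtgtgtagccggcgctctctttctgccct
Vegfa, chr17:46032378-46032627: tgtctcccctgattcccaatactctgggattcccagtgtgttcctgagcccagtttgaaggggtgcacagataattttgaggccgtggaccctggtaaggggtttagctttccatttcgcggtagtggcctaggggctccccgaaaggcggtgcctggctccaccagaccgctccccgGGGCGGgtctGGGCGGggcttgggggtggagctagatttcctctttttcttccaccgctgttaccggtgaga
The Flt1 window held AGGAAG 2 times, at 129 to 124 and 53 to 48 bases before the start, and the GC box 3 times. The Kdr window held the GC box 2 times and no AGGAAG, and the Vegfa window likewise held the GC box 2 times and no AGGAAG. Among 32851 promoter windows of the same length, 29.5% held AGGAAG and 32.7% held GGGCGG. The hypoxia-inducible factor core ACGTG was also searched on both strands, is held by 16.6% of windows, and was not among these letters in the 3 windows printed. Vegfa has a second RefSeq start, whose window (chr17:46025164-46025413, not printed) held ACGTG 1 time, at 211 to 207 bases before that start. Over the windows of all 9 members the GC box was present in 9 members, AGGAAG in 2, Flt1 and Nrp1, and ACGTG in 1, Vegfa. No match overlapped another in the 3 windows, and a match of letters describes the window and is not a binding site.

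**Figure D1:**
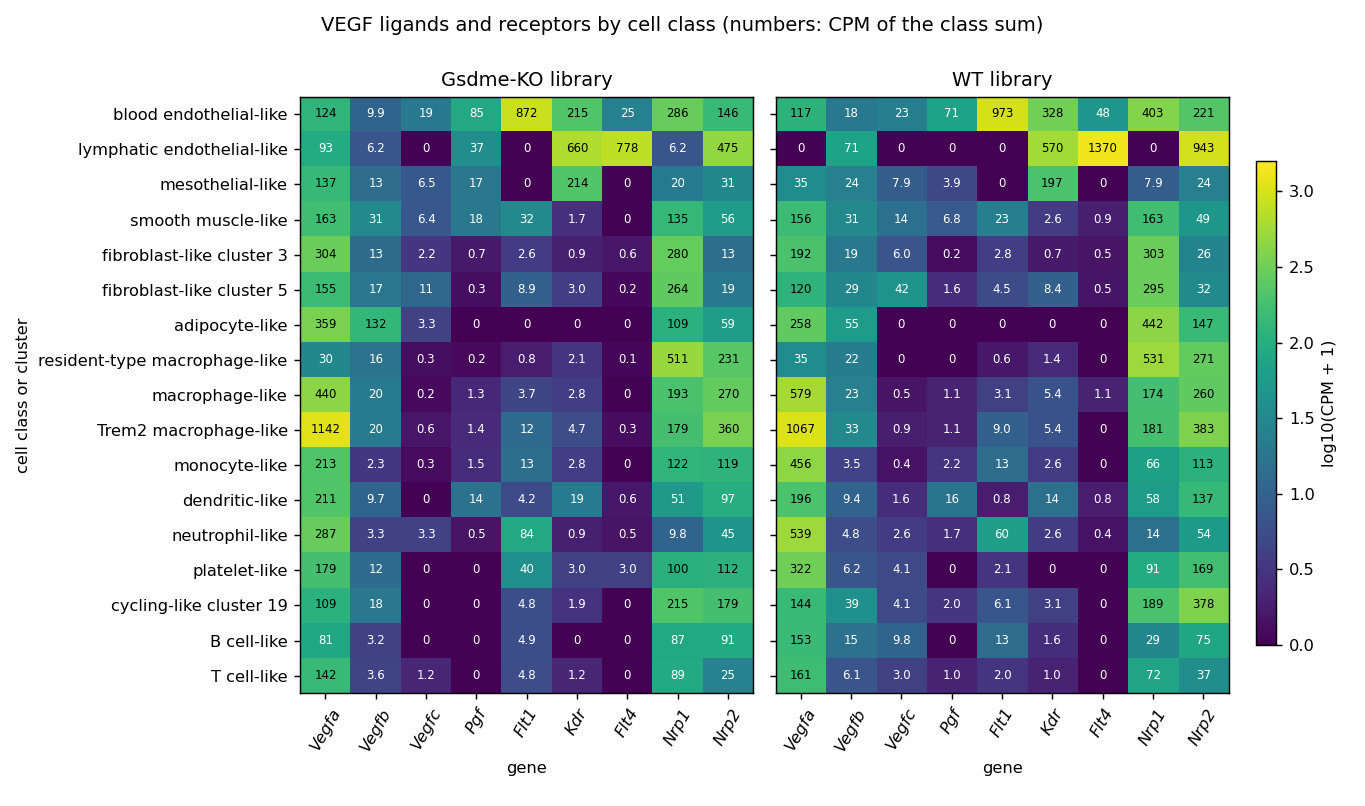
Level of each of the 9 genes in each class or cluster, as CPM of the class's UMIs (numbers) on a colour scale of log10(CPM + 1), with the Gsdme-KO library in the left panel and the WT library in the right. Flt1 was highest in blood endothelial-like cells (872 CPM in Gsdme-KO, 973 CPM in WT), Flt4 in lymphatic endothelial-like cells, Vegfa in Trem2 macrophage-like cells and Nrp1 in resident-type macrophage-like cells.

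Vegfa (ENSMUSG00000023951, chr17:46016993-46032369, minus strand, mm10) was spread over nearly all classes and was highest in Trem2 macrophage-like cells, the class marked by Trem2, Gpnmb and Spp1. It reached 1142 CPM there in Gsdme-KO (95% interval 1107 to 1177) and 1067 CPM in WT (1037 to 1097). These cells were 5.71% of Gsdme-KO and 7.97% of WT cells and held 29.7% of all Vegfa UMIs in Gsdme-KO and 33.4% in WT. Resident-type macrophage-like cells, marked by Lyve1, Folr2 and Cd163, lay at the other end of the compared classes with 30.1 CPM in Gsdme-KO and 35.2 CPM in WT. The macrophage classes thus spanned the whole range of Vegfa. Neutrophil-like cells held 287 CPM in Gsdme-KO and 539 CPM in WT, macrophage-like cells 440 CPM in Gsdme-KO and 579 CPM in WT, and monocyte-like cells 213 CPM in Gsdme-KO and 456 CPM in WT. After thinning every cell to 1000 UMIs, a Vegfa UMI was found in 52.7% of Gsdme-KO and 52.8% of WT Trem2 macrophage-like cells, against 3.07% of Gsdme-KO and 5.88% of WT B cell-like cells, which stand for background from free RNA. Lymphatic endothelial-like cells held 15 Vegfa UMIs in Gsdme-KO (92.6 CPM) and 0 in WT, where 3 UMIs would be 53.4 CPM. The unthinned shares were 82.1% in Gsdme-KO and 84.7% in WT Trem2 macrophage-like cells (median depths 6795 and 6994 UMIs), and 10.3% in Gsdme-KO and 10.9% in WT B cell-like cells (2515 and 2189 UMIs).

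Vegfb (ENSMUSG00000024962, chr19:6982473-6987651, minus strand), whose product binds VEGFR1 and is known for roles in fat and heart muscle, was low in every compared class, between 2.30 and 31.2 CPM in Gsdme-KO and between 3.45 and 38.9 CPM in WT. Adipocyte-like cells, too few to compare with 38 cells in Gsdme-KO and 7 in WT, held 132 CPM in Gsdme-KO and 55.3 CPM in WT, the WT value resting on 3 UMIs. Vegfc (ENSMUSG00000031520, chr8:54077606-54187096, plus strand) was by level highest, among compared classes, in blood endothelial-like cells in Gsdme-KO and in fibroblast-like cluster 5 in WT. The largest part of its UMIs lay in cluster 5, with 39.1% in Gsdme-KO and 60.5% in WT. Its level there was 10.6 CPM in Gsdme-KO and 42.0 CPM in WT, and blood endothelial-like cells held 18.8 CPM in Gsdme-KO and 23.0 CPM in WT. No Vegfc UMI was found in lymphatic endothelial-like cells of either library, where 3 UMIs would be 18.5 CPM in Gsdme-KO and 53.4 CPM in WT. Pgf (ENSMUSG00000004791, chr12:85166635-85177790, minus strand), the gene of the VEGFR1 ligand PlGF, was highest in blood endothelial-like cells, at 85.1 CPM in Gsdme-KO (68.1 to 105) and 70.6 CPM in WT (51.7 to 94.1). In the endothelial class these UMIs were uneven, 25.6% of them in 1 cell in Gsdme-KO and 28.3% in WT. Those cells held 45.3% of Pgf UMIs in Gsdme-KO and 41.8% in WT, and no Pgf UMI was seen in B cell-like cells of either library.

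Flt1 (ENSMUSG00000029648, chr5:147561604-147726011, minus strand), the gene of VEGFR1, was concentrated in blood endothelial-like cells, with 872 CPM in Gsdme-KO (815 to 931) and 973 CPM in WT (898 to 1051). These cells held 63.1% of its UMIs in Gsdme-KO and 64.8% in WT, and a Flt1 UMI was present in 79.3% of them in Gsdme-KO and 75.5% in WT. The next place was held by neutrophil-like cells, with 83.7 CPM in Gsdme-KO (71.9 to 96.9) and 59.9 CPM in WT (50.3 to 70.7). There a Flt1 UMI was present in 6.07% of Gsdme-KO and 6.00% of WT cells at median depths of 1570 and 1656.5 UMIs. In B cell-like cells, which were deeper at 2515 and 2189 UMIs, the share was 0.543% in Gsdme-KO and 0.905% in WT. After thinning, the shares were 4.87% in Gsdme-KO and 4.35% in WT neutrophil-like cells, against 0.613% in Gsdme-KO and 0.980% in WT B cell-like cells, so the neutrophil-like share stood above this background in both libraries. Lymphatic endothelial-like cells had no Flt1 UMI in 30 Gsdme-KO and 18 WT cells. Platelet-like cells held 13 Flt1 UMIs in Gsdme-KO and 1 in WT, too few to compare. UMI counts do not separate the soluble from the membrane form of VEGFR1.

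Kdr (ENSMUSG00000062960, chr5:75932827-75978458, minus strand), the gene of VEGFR2, was shared by blood endothelial-like, lymphatic endothelial-like and mesothelial-like cells. Lymphatic endothelial-like cells held 660 CPM in Gsdme-KO (541 to 798) and 570 CPM in WT (390 to 804), and blood endothelial-like cells 215 CPM in Gsdme-KO (187 to 245) and 328 CPM in WT (286 to 375). Mesothelial-like cells, the lining of the body cavity marked by Msln and Upk3b, held 214 CPM in Gsdme-KO (173 to 260) and 197 CPM in WT (146 to 260). A Kdr UMI was present in 56.9% of Gsdme-KO and 40.0% of WT mesothelial-like cells, and in none of 184 Gsdme-KO and 1 of 221 WT B cell-like cells. Blood endothelial-like and mesothelial-like cells had overlapping intervals in Gsdme-KO and not in WT. Flt4 (ENSMUSG00000020357, chr11:49609263-49652739, plus strand), the gene of VEGFR3, stood at 778 CPM in Gsdme-KO (648 to 926) and 1370 CPM in WT (1082 to 1713) in lymphatic endothelial-like cells. These 30 and 18 cells held 76.8% of all Flt4 UMIs in Gsdme-KO and 59.2% in WT, and blood endothelial-like cells held most of the rest, at 24.7 CPM in Gsdme-KO and 47.6 CPM in WT.

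Nrp1 (ENSMUSG00000025810, chr8:128358604-128503363, plus strand) was highest in resident-type macrophage-like cells, at 511 CPM in Gsdme-KO (497 to 526) and 531 CPM in WT (511 to 551). They held 38.4% of its UMIs in Gsdme-KO and 31.1% in WT. Blood endothelial-like cells held 286 CPM in Gsdme-KO and 403 CPM in WT, fibroblast-like cluster 3 held 280 CPM in Gsdme-KO and 303 CPM in WT, and lymphatic endothelial-like cells held 1 UMI in Gsdme-KO and 0 in WT. Nrp2 (ENSMUSG00000025969, chr1:62703285-62818695, plus strand), the VEGFR3 co-receptor of lymphatic vessels, had the reverse pattern within the endothelium, with 475 CPM in Gsdme-KO (375 to 594) and 943 CPM in WT (707 to 1234) in lymphatic endothelial-like cells and 146 CPM in Gsdme-KO and 221 CPM in WT in blood endothelial-like cells. Trem2 macrophage-like cells held 360 CPM of Nrp2 in Gsdme-KO and 383 CPM in WT. The neuropilins were thus counted in macrophage classes as well as in endothelium, and most of their UMIs came from cells with little Kdr.

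**Figure D2:**
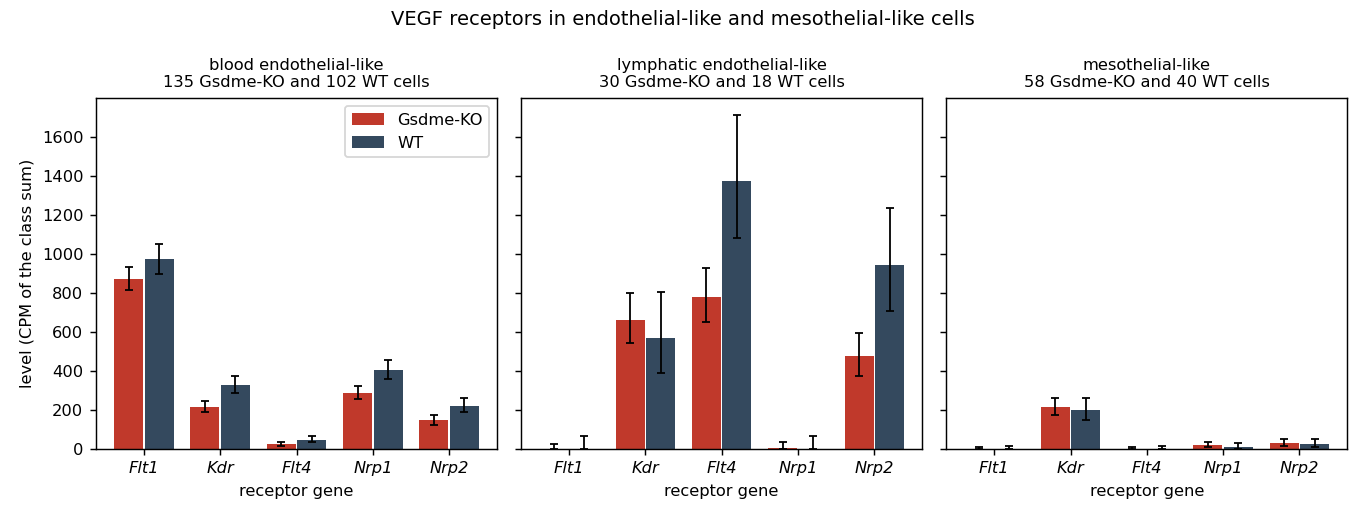
Levels of the 3 receptors and both neuropilins in blood endothelial-like, lymphatic endothelial-like and mesothelial-like cells, as bars in CPM from 0, Gsdme-KO left of WT, with 95% exact Poisson intervals (counting error only) and 1 library per group. Flt1 and Nrp1 lay in blood endothelial-like cells, Flt4 in lymphatic endothelial-like cells, and Kdr in all 3 classes (214 CPM in Gsdme-KO and 197 CPM in WT mesothelial-like cells).

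Within blood endothelial-like cells Kdr was more frequent in cells with a Flt1 UMI, and Nrp1 in cells with a Kdr UMI, than in cells without. Kdr was present in 47.7% of Gsdme-KO and 66.2% of WT cells with a Flt1 UMI, against 14.3% of Gsdme-KO and 8% of WT cells without one. Deep cells show more of every gene, and after thinning to 1000 UMIs the shares were 21.6% in Gsdme-KO and 38.1% in WT with Flt1, against 10% in Gsdme-KO and 20.9% in WT without it. Nrp1 was present in 83.6% of Gsdme-KO and 88.7% of WT cells with Kdr, and in 42.5% of Gsdme-KO and 42.9% of WT cells without. Thinned, these shares were 50% in Gsdme-KO and 52% in WT with Kdr, against 30.6% in Gsdme-KO and 20% in WT without. Unthinned, Flt4 was present in 20% of Gsdme-KO and 22.6% of WT cells with Kdr, against 7.5% in Gsdme-KO and 12.2% in WT without. Thinned, Flt4 was left in only 3 of 101 Gsdme-KO and 4 of 85 WT cells, too few to read. Kdr and Flt4 were then both present in 0 Gsdme-KO and 1 WT cell. Not every pair went the same way in both libraries: thinned, Nrp2 was present in 11.8% of Gsdme-KO cells with Nrp1 against 14.9% without. In WT it was present in 32% against 16.7%. In lymphatic endothelial-like cells, Kdr and Flt4 were both present in 22 of 30 Gsdme-KO and 15 of 18 WT cells, and after thinning in 8 of 28 Gsdme-KO and 5 of 15 WT cells. After thinning, Flt4 was no more frequent with Kdr than without it, at 50% in Gsdme-KO and 55.6% in WT cells with Kdr, against 50% in Gsdme-KO and 66.7% in WT cells without.

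Likeness of pattern was taken as the Pearson correlation of log2(CPM + 1) over 28 profiles, the 14 compared classes in 2 libraries. The profiles share libraries, depth and cells. Only genes with at least 50 UMIs in the compared class and library where the member was highest were searched, which favours genes of that class. For Flt1, Kdr and Flt4, highest there in WT blood endothelial-like cells, 2681 genes were searched. Members, gene models, ribosomal, mitochondrial and some sex-linked genes were left out. Up to the 5 highest genes are named for each member. Kdr was most like Dll4 (r = 0.91), the Notch ligand of endothelium, then Sox7, Cdh5, Tmem252 and Cyyr1. Flt1 was most like Erg (r = 0.88), an ETS factor of endothelium, then Ptprb, Krt18, Mall and Id1. Pgf was most like Dll4 (r = 0.90), then Ptprb, Cdh5, Timp4 and Itga3, and Flt4 was most like Stc1 (r = 0.95), then Sema3g, Tie1, Robo4 and Arhgef15. Spearman's rho was lower for these, 0.48 for Kdr with Dll4, 0.73 for Flt1 with Erg, 0.70 for Pgf with Dll4 and 0.63 for Flt4 with Stc1, and as low as 0.20 for Flt4 with Tie1. The profiles leave out lymphatic endothelial-like cells, which held most Flt4 UMIs. Vegfa was most like Snx18 (r = 0.79, rho 0.83), then Epb41l2, the glucose transporter Slc2a1 (r = 0.76, rho 0.65), Gde1 and Rcbtb2. Vegfc was most like Pcdh9 (r = 0.84), then Col4a4, Bmp4, Emp2 and Nbea. Nrp1 was most like Kif3a (r = 0.92), Nrp2 most like Adap2 (r = 0.91), then the macrophage scavenger receptor Stab1 and the phagocytic receptor Mertk, and Vegfb most like Igf1 (r = 0.83).

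The comparison of the libraries asked how these genes differ when Gsdme is deleted in the aneurysmal aorta. A gene was called higher or lower where the ratio of Gsdme-KO over WT was at least 1.5, or at most its inverse, with a 95% interval that does not hold 1, and only with at least 30 UMIs over both libraries of the class. Of 69 pairs of member and class so compared, 5 were called higher, in 5 different classes, and 18 were called lower. That is 7.25% and 26.1% of pairs, beside 4.48% and 7.15% of all pairs of gene and class. The pairs share cells, libraries and genes and are not independent. By member, Vegfa was higher in 1 and lower in 4 of 14 classes, Nrp2 lower in 5 of 14, and Nrp1 higher in 2 of 14. Vegfb was lower in 3 of 7 classes, Kdr in 3 of 5, Vegfc in 2 of 3 and Flt4 in the 1 class where it was compared, and none of these 4 was higher in any. Flt1 was higher in 1 of 8 classes and Pgf in 1 of 3. Over all kept cells only Vegfc was called, lower at 3.33 CPM in Gsdme-KO against 6.77 CPM in WT (ratio 0.493, 0.405 to 0.599), among 6.71% of all genes called lower and 6.57% called higher. As a mean over cells, which gives shallow cells more weight, the Vegfc ratio was 0.933, and after thinning it was 0.563 and not called. Sums over all cells also follow the share of each class in the library.

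**Figure D3:**
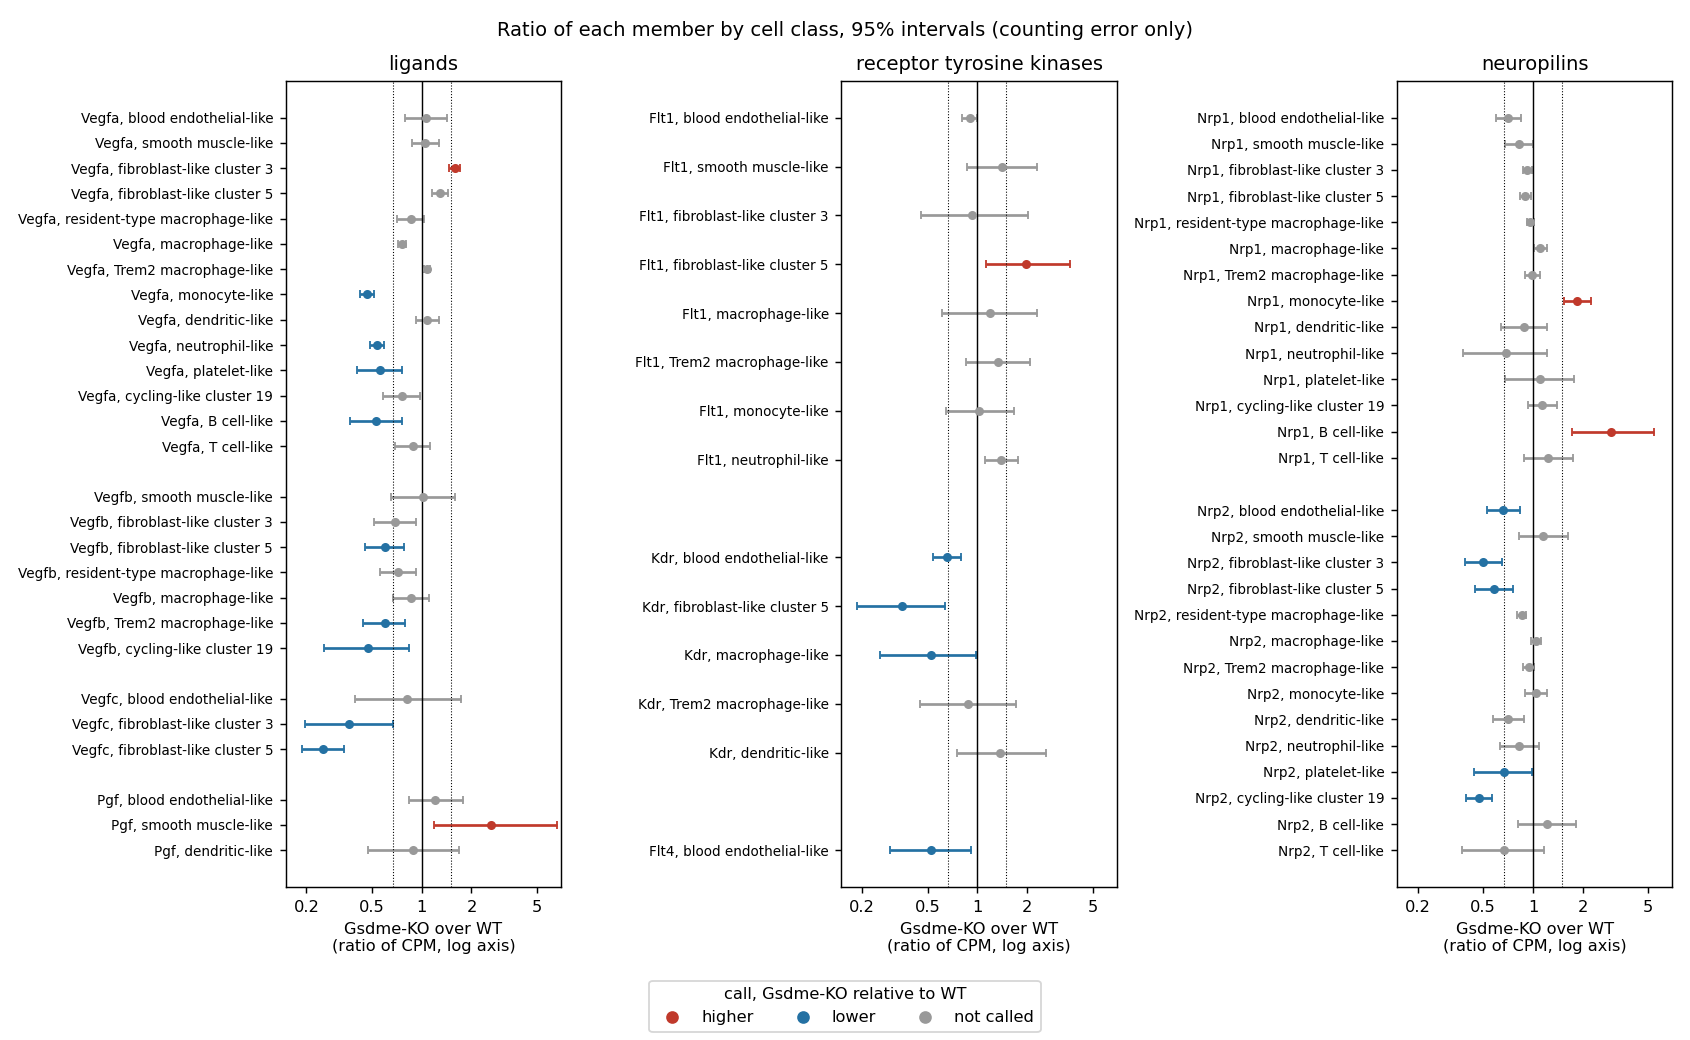
Ratio of Gsdme-KO over WT for each member in each compared class, on a log axis, with 95% exact intervals (counting error only). Red points were called higher (5 of 69), blue points lower (18 of 69) and grey points were not called, with dotted lines at the 1.5-fold limits.

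In blood endothelial-like cells Kdr, Flt4 and Nrp2 were lower in Gsdme-KO, while Flt1 and Pgf were not called. Kdr stood at 215 CPM in Gsdme-KO against 328 CPM in WT (ratio 0.654, 0.539 to 0.794; 217 and 214 UMIs), Flt4 at 24.7 CPM in Gsdme-KO against 47.6 CPM in WT (0.520, 0.294 to 0.910), and Nrp2 at 146 CPM in Gsdme-KO against 221 CPM in WT (0.663, 0.523 to 0.840). These were 3 of 8 members compared, beside 6.68% of all genes called lower, and none was called higher, beside 4.15%. A Kdr UMI was present in 15.8% of thinned Gsdme-KO and 29.4% of thinned WT cells, with 34 and 17 shallower cells left out, and in 40.7% and 52.0% unthinned. The 8 members had a median log2 ratio of -0.39, beside -0.06 over all genes of the class. Flt1, at 872 CPM in Gsdme-KO and 973 CPM in WT, had a ratio of 0.896 (0.808 to 0.994), Nrp1 0.709 (0.598 to 0.841), Vegfa 1.06 and Pgf 1.21. The last 3 of these depended on the processing: Nrp1 stood at 1.06 after thinning, Vegfa at 0.920 without the highest Scrublet scores, and Pgf at 0.580 as a mean over cells. The Kdr and Nrp2 ratios lay near the 1.5-fold limit: with TMM factors the Kdr ratio was 0.692 and that of Nrp2 0.702, both not called, and at Leiden resolution 0.5 Kdr stood at 0.799. With at most 10% mitochondrial UMIs per cell, 0 members were called lower.

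Summed markers of other cells also differed between the libraries in this class, in both directions. In blood endothelial-like cells the summed blood endothelial markers were 4341 CPM in Gsdme-KO and 4914 CPM in WT. Fibroblast markers summed to 1770 CPM in Gsdme-KO and 3065 CPM in WT (0 of 8 higher in Gsdme-KO), and macrophage markers to 464 CPM in Gsdme-KO and 793 CPM in WT (0 of 7). Smooth muscle markers summed to 1078 CPM in Gsdme-KO and 710 CPM in WT (6 of 7). Lists at lower levels differed more. Erythroid markers summed to 3.96 CPM in Gsdme-KO and 509 CPM in WT (0 of 3), and adipocyte markers to 8.91 CPM in Gsdme-KO and 87.4 CPM in WT (1 of 5). Plasma cell markers summed to 308 CPM in Gsdme-KO and 35.3 CPM in WT (1 of 3), and neutrophil markers to 213 CPM in Gsdme-KO and 85.9 CPM in WT (5 of 6). On endothelial subtype lists chosen after seeing the data, capillary markers summed to 3286 CPM in Gsdme-KO and 3775 CPM in WT, venous markers to 1632 CPM in Gsdme-KO and 1221 CPM in WT, and arterial markers to 944 CPM in Gsdme-KO and 936 CPM in WT. Their part in the receptor ratios was not tested.

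Genes around the receptors were taken from lists. Their counts in blood endothelial-like cells stand beside 4.15% of all genes of the class called higher and 6.68% called lower. Of 24 compared genes of VEGFR2 signalling none was called in blood endothelial-like cells, with a median log2 ratio of 0.04. Of 13 tip cell and Notch genes 4 were higher, among them Apln, the ligand of the apelin receptor, at 312 CPM in Gsdme-KO and 147 CPM in WT (2.12, 1.68 to 2.69) and the tip cell gene Esm1 at 256 CPM in Gsdme-KO and 160 CPM in WT (1.61, 1.27 to 2.04). The 1 lower was Angpt2, an antagonist of the TIE2 receptor, at 79.2 CPM in Gsdme-KO and 120 CPM in WT (0.662). The median log2 ratio of these 13 genes was 0.02. Of 12 early genes that VEGF can induce 3 were higher, among them Nr4a3 at 337 CPM in Gsdme-KO and 167 CPM in WT (2.02). None of the 12 was lower, and their median log2 ratio was -0.05. Of 7 semaphorin and plexin genes 2 were higher and 2 lower, with a median log2 ratio of -0.47. The 2 higher are not named here. The lower were Plxna4 (34.6 CPM in Gsdme-KO, 82.8 CPM in WT) and Plxnd1 (112 CPM in Gsdme-KO, 180 CPM in WT), genes of plexins, the signalling partners of neuropilins for semaphorins.

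**Figure D4:**
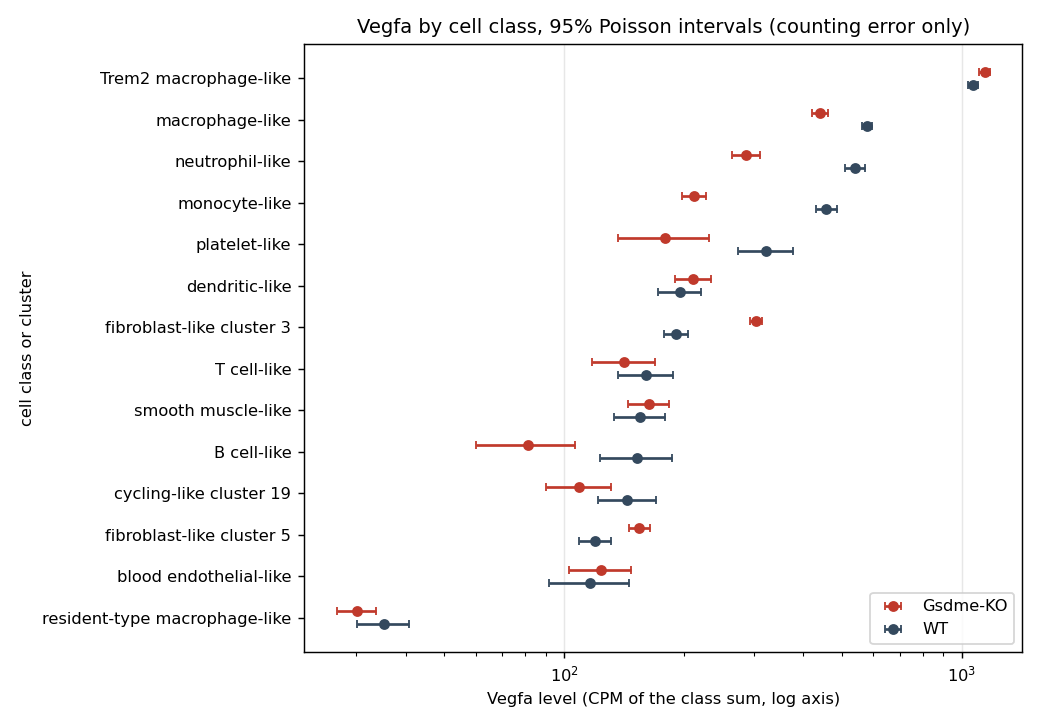
Level of Vegfa in each class, in CPM on a log axis, Gsdme-KO above WT, with 95% exact Poisson intervals (counting error only) and 1 library per group. Monocyte-like cells (213 CPM in Gsdme-KO, 456 CPM in WT) and fibroblast-like cluster 3 (304 CPM in Gsdme-KO, 192 CPM in WT) differed in opposite directions, and Trem2 macrophage-like cells lay highest in both libraries.

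Vegfa was lower in the library labelled Gsdme-KO in monocyte-like, neutrophil-like, platelet-like and B cell-like cells. In monocyte-like cells it stood at 213 CPM in Gsdme-KO against 456 CPM in WT (ratio 0.466, 0.425 to 0.511), and in neutrophil-like cells at 287 CPM in Gsdme-KO against 539 CPM in WT (0.532, 0.483 to 0.587). Thinned shares of cells with a Vegfa UMI moved the same way, 15.5% in Gsdme-KO and 25.7% in WT monocyte-like cells, and 17.4% in Gsdme-KO and 22.2% in WT neutrophil-like cells. Unthinned, they were 31.3% in Gsdme-KO and 45.9% in WT monocyte-like cells and 22.8% in Gsdme-KO and 29.6% in WT neutrophil-like cells. Platelet-like cells held 179 CPM in Gsdme-KO and 322 CPM in WT (0.556, 0.405 to 0.755; 59 and 156 UMIs, of which 1 Gsdme-KO cell held 37.3%). B cell-like cells held 81.0 CPM in Gsdme-KO and 153 CPM in WT (0.530, 0.368 to 0.754; 50 and 94 UMIs), with 34.0% of the WT UMIs in 1 cell, in the class that stands for background from free RNA. In macrophage-like cells Vegfa was at 440 CPM in Gsdme-KO and 579 CPM in WT (0.761), and in Trem2 macrophage-like cells the ratio was 1.07 (0.981 in the largest sub-cluster), neither called.

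The counts in these classes stand beside their backgrounds. In monocyte-like cells 1 of 4 members was lower and 1 higher, beside 5.69% and 4.58% of all genes. In neutrophil-like cells 1 of 4 was lower and 0 higher, beside 6.13% and 4.66%. In platelet-like cells 2 of 3 were lower and 0 higher, beside 7.01% and 6.00%, the second being Nrp2 at 112 CPM in Gsdme-KO and 169 CPM in WT (0.663, 0.437 to 0.990). In B cell-like cells 1 of 3 was lower and 1 higher, beside 9.72% and 6.99%. The hypoxia-induced list, to which Vegfa's known regulation by hypoxia-inducible factors relates, had 1 of 15 genes lower and 0 higher in monocyte-like cells (Bnip3, a mitophagy receptor, ratio 0.612). In neutrophil-like cells 2 of 16 were lower and 0 higher, the glucose transporter Slc2a1 (0.664) and lactate dehydrogenase Ldha (0.644). In monocyte-like cells the summed neutrophil markers were 101 CPM in Gsdme-KO and 216 CPM in WT, and their part in the Vegfa ratio was not tested.

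Nrp1 was the higher member in monocyte-like cells, at 122 CPM in Gsdme-KO against 65.6 CPM in WT (ratio 1.86, 1.55 to 2.25; 478 and 152 UMIs). The thinned share of cells with a UMI was 10.9% in Gsdme-KO and 5.76% in WT, unthinned 38.2% in Gsdme-KO and 21.98% in WT. In neutrophil-like cells it was 0.918% in Gsdme-KO and 1.30% in WT. The summed markers of resident-type macrophages, the class richest in Nrp1, were 1993 CPM in Gsdme-KO and 1058 CPM in WT monocyte-like cells (5 of 6 higher in Gsdme-KO), and at Leiden resolution 0.5, which draws the class differently, the Nrp1 ratio was 1.29. In B cell-like cells Nrp1 stood at 87.4 CPM in Gsdme-KO against 29.3 CPM in WT (2.99, 1.72 to 5.41; 54 and 18 UMIs), with 40.7% of the Gsdme-KO UMIs in 1 cell. There resident-type macrophage markers summed to 1804 CPM in Gsdme-KO and 187 CPM in WT (5 of 6 higher), and thinned shares were 0.613% in Gsdme-KO and 0.980% in WT. As a mean over cells the B cell-like ratio was 0.992. The part of these markers in either ratio was not tested.

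Fibroblast-like clusters differed in their ligands. Vegfc was lower in both: in cluster 5 it stood at 10.6 CPM in Gsdme-KO against 42.0 CPM in WT (ratio 0.253, 0.187 to 0.338; 68 and 159 UMIs), and in cluster 3 at 2.18 CPM in Gsdme-KO against 6.02 CPM in WT (0.363, 0.196 to 0.666; 22 and 26 UMIs). In cluster 5 a Vegfc UMI was found in 8.99% of Gsdme-KO and 20.9% of WT cells, and after thinning in 0.669% of Gsdme-KO and 4.03% of WT cells, against 0% in Gsdme-KO and 0.490% in WT B cell-like cells. Vegfa went the other way in cluster 3, at 304 CPM in Gsdme-KO against 192 CPM in WT (1.59, 1.47 to 1.71), and stood at 155 CPM in Gsdme-KO and 120 CPM in WT in cluster 5 (1.29, not called). In the cells of the largest sub-cluster of cluster 3, an alternative chosen after seeing the data, the Vegfa ratio was 1.22, and after thinning 1.33, neither called.

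The remaining fibroblast calls were in receptors, co-receptors and Vegfb. Nrp2 was lower in cluster 3, at 13.2 CPM in Gsdme-KO against 26.4 CPM in WT (0.5004, 0.387 to 0.648), and in cluster 5, at 18.9 CPM in Gsdme-KO against 32.5 CPM in WT (0.581, 0.448 to 0.753). In cluster 5 Kdr was lower at 2.96 CPM in Gsdme-KO against 8.45 CPM in WT (0.351, 0.188 to 0.638; 19 and 32 UMIs), Vegfb lower at 17.0 CPM in Gsdme-KO against 28.5 CPM in WT (0.596, 0.452 to 0.785), and Flt1 higher at 8.89 CPM in Gsdme-KO against 4.49 CPM in WT (1.98, 1.14 to 3.63; 57 and 17 UMIs). Receptor levels here were a small part of those in endothelium. In cluster 3, 1 of 6 members was higher and 2 lower, beside 4.10% and 11.2% of all genes, and in cluster 5, 1 of 7 was higher and 4 lower, beside 4.39% and 11.9%. All genes leaned lower in these clusters: the median log2 ratio was -0.14 in each, and TMM scaling moved it to 0.03 in cluster 3 and 0.02 in cluster 5. With TMM factors Vegfc was 0.282 and Kdr 0.392 in cluster 5, and in cluster 3 Vegfc was 0.406 and Vegfa 1.78, all still called. Summed macrophage markers were 259 CPM in Gsdme-KO and 507 CPM in WT in cluster 3, and 255 CPM in Gsdme-KO and 522 CPM in WT in cluster 5, with 0 of 7 higher in Gsdme-KO in each, and their part was not tested.

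**Figure D5:**
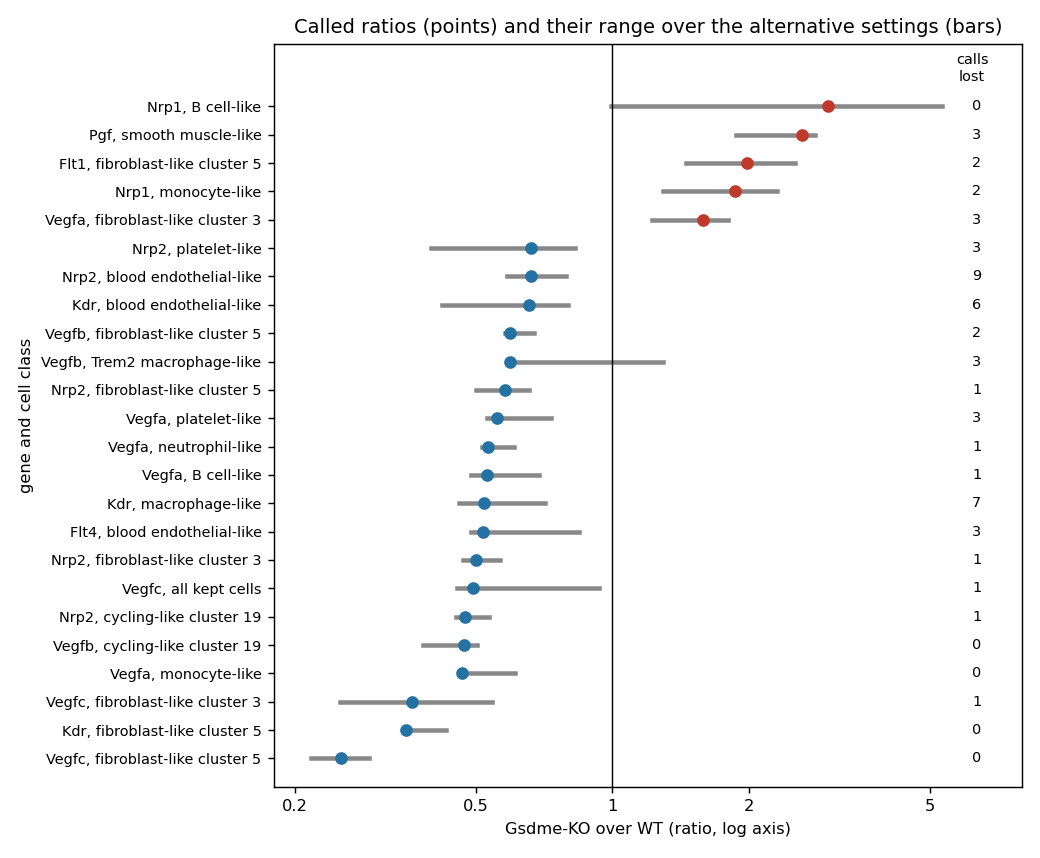
Ratio of Gsdme-KO over WT for each called pair of member and class (red higher, blue lower) with its lowest and highest value over the alternative settings (bar), on a log axis, and at the right the number of settings that ended the call. Vegfc in fibroblast-like cluster 5 lay between 0.217 and 0.292, while Vegfb in Trem2 macrophage-like cells and Nrp1 in B cell-like cells crossed 1.

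Other genes of the ligands' pathways were read in the same clusters. VEGF-D, the other lymphatic ligand, is encoded by Vegfd, which stood at 430 CPM in Gsdme-KO and 599 CPM in WT in cluster 3 (0.718) and 280 CPM in Gsdme-KO and 398 CPM in WT in cluster 5 (0.703), not called. Of the VEGF-C processing and lymphatic list, 3 of 9 genes were higher and 2 lower in cluster 3. Among them Ccbe1, whose product helps to activate VEGF-C, was at 18.8 CPM in Gsdme-KO and 36.1 CPM in WT (0.520), and Adamts3, the gene of a protease that cleaves VEGF-C, at 21.7 CPM in Gsdme-KO and 10.4 CPM in WT (2.09). In cluster 5, 4 of 7 were higher and none lower, beside 4.39% and 11.9% of all genes. Outside the fibroblast-like clusters, 2 of 4 were higher in Trem2 macrophage-like cells (beside 2.99% of all genes) and 2 of 4 in macrophage-like cells (beside 3.06%). Over all kept cells 4 of 12 were higher and none lower, beside 6.57% and 6.71%. T cell-like and dendritic-like cells had none higher and 1 lower each, beside 5.87% and 6.58% of all genes called lower. The list also holds Lyve1, a marker of resident-type macrophages. Of the tip cell and Notch list, 3 of 9 genes were higher and 3 lower in cluster 5 (median log2 ratio -0.12), and 2 of 7 higher and 1 lower in cluster 3. Esm1, the member with the highest ratio in both, was at 99.9 CPM in Gsdme-KO and 10.6 CPM in WT in cluster 5 (9.46, 6.87 to 13.4) and at 26.1 CPM in Gsdme-KO and 4.40 CPM in WT in cluster 3 (5.94, 3.73 to 10.02). Cxcr4, a chemokine receptor, was lower in both, at 8.89 CPM in Gsdme-KO and 17.7 CPM in WT in cluster 5 (0.502) and 8.14 CPM in Gsdme-KO and 19.2 CPM in WT in cluster 3 (0.424). Of the hypoxia-induced list, 3 of 19 were higher and 1 lower in cluster 3, with Hilpda, a lipid droplet protein, at 1.94 and Adm, the gene of adrenomedullin, at 0.621. In cluster 5, 4 of 18 were higher and 1 lower, with Ndrg1 at 1.87 and Adm at 0.612.

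In the other classes fewer members were called. In smooth muscle-like cells 1 of 6 was higher and 0 lower, beside 6.30% and 6.82% of all genes: Pgf, at 17.9 CPM in Gsdme-KO against 6.84 CPM in WT (2.62, 1.18 to 6.59), a ratio from 31 and 8 UMIs. The class's own markers summed to 5251 CPM in Gsdme-KO and 2427 CPM in WT (7 of 7 higher) and pericyte markers to 1634 CPM in Gsdme-KO and 681 CPM in WT (5 of 6), their part in the Pgf ratio was not tested, and within the largest sub-cluster Pgf was not called. Vegfd in this class was lower at 66.4 CPM in Gsdme-KO against 204 CPM in WT (0.325, 0.258 to 0.408), and Ccbe1 lower at 22.5 CPM in Gsdme-KO against 114 CPM in WT (0.198, 0.135 to 0.285). Ccbe1 was the 1 lower of 5 compared genes of the VEGF-C processing and lymphatic list, of which 3 were higher (median log2 ratio 0.69). Both Vegfd and Ccbe1 were also counted in fibroblast-like cluster 3. The part of the fibroblast signal of the smooth muscle-like class in their ratios was not tested. In Trem2 macrophage-like cells 1 of 6 was lower and 0 higher, beside 4.47% and 2.99%: Vegfb, at 19.8 CPM in Gsdme-KO against 33.2 CPM in WT (0.595, 0.443 to 0.793), which after thinning stood at 1.29. In macrophage-like cells 1 of 6 was lower and 0 higher, beside 3.82% and 3.06%: Kdr, at 2.81 CPM in Gsdme-KO against 5.38 CPM in WT, from 13 and 44 UMIs (0.521, 0.258 to 0.986). That call was lost under 7 settings, among them TMM factors, size factors, at least 1000 UMIs per cell and members among the clustering genes.

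In cycling-like cluster 19 the lower members were Nrp2, at 179 CPM in Gsdme-KO against 378 CPM in WT (0.473, 0.395 to 0.566), and Vegfb, at 18.4 CPM in Gsdme-KO against 38.9 CPM in WT (0.472, 0.257 to 0.840). They were 2 of 4 compared, with 0 higher, beside 9.18% and 6.15% of all genes, and 19.2% of the WT Nrp2 UMIs lay in 1 cell. The macrophage markers of this cluster differed between libraries. Trem2 macrophage markers, of the class in which Nrp2 is high, summed to 1549 CPM in Gsdme-KO and 3478 CPM in WT (ratio 0.445, 0 of 5 higher in Gsdme-KO). Resident-type macrophage markers summed to 2979 CPM in Gsdme-KO and 732 CPM in WT (6 of 6 higher), and neutrophil markers to 67.6 CPM in Gsdme-KO and 531 CPM in WT (1 of 6). Their part in the Nrp2 and Vegfb ratios was not tested. Of the hypoxia-induced list 7 of 15 were lower and 1 higher in this cluster. No member was called in dendritic-like cells (5 compared, beside 5.22% higher and 6.58% lower), T cell-like cells (3 compared, beside 3.73% and 5.87%) or resident-type macrophage-like cells (4 compared, beside 3.19% and 4.69%). In resident-type cells Nrp1, at 511 CPM in Gsdme-KO and 531 CPM in WT, had a ratio of 0.964, and 1.02 with TMM factors. In lymphatic endothelial-like cells, too few to compare, Flt4 was at 778 CPM in Gsdme-KO and 1370 CPM in WT (0.567, 0.424 to 0.764; 126 and 77 UMIs). There the Nrp2 ratio was 0.504 (0.351 to 0.729) and the Kdr ratio 1.16 (0.775 to 1.78), so the receptors did not share a direction. Fibroblast markers in these cells summed to 3654 CPM in Gsdme-KO and 908 CPM in WT. The part of those markers in these ratios was not tested.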

How the data were processed

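Abdominal aorta from mice given PPE was dissociated and single cells were profiled with BD Rhapsody (per the labels' protocols). The deposited matrices hold raw whole-number counts per gene and barcode, not normalised by the authors. That they count UMIs follows from the platform and STARsolo. CASAVA 1.8, STARsolo and mm10 appear in the submitters' processing notes. Positions came from GENCODE M21 of that build and promoters from RefSeq.

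Cells with at least 500 UMIs, 250 genes and at most 25% mitochondrial UMIs were kept. Scrublet marked 1 Gsdme-KO and 0 WT cells and so had not worked, and doublets remain. With scanpy 1.11.5, 2000 variable genes without the 9 members, 30 components, 15 neighbours and Leiden resolution 1 gave 27 clusters. A cluster could take a name from 1 of 25 lists of markers if at least 25% of its cells held each of at least 3 of them. Among such lists the one with the highest mean fold over other cells was used. A cluster of low depth stayed unnamed if no marker of that list was among its 10 leading genes. Clusters 8, 9, 12 and 17 held at least 3 markers of a list and stayed unnamed. Counts were summed per class and library. Ratios carry exact conditional binomial, levels exact Poisson and shares Clopper-Pearson intervals (95%), which cover counting error only. A floor of 0 was 3 UMIs.

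All 9 members are named. At most 4 called genes per list and class are named, with the interval end farthest from 1, from 10 lists of 134 genes. Members and lists were chosen with earlier results of these data known. Intervals and calls were run on simulated counts drawn with the Poisson counting error that the intervals assume. The simulation left out UMIs gathered in single cells and differences between mice, so it cannot show how the intervals hold under those. Alternatives were other cell filters, edgeR 4.0.16 TMM and median-of-ratios factors, thinning, means over cells, other clusterings, floors and folds. Proteins were not compared here.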

Additional observations from a re-analysis of the deposited data

Results flagged for a closer look

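Vegfa was called in opposite directions in different cells. Its ratio of Gsdme-KO over WT was 1.59 in fibroblast-like cluster 3, against 0.466 in monocyte-like, 0.532 in neutrophil-like, 0.556 in platelet-like and 0.530 in B cell-like cells. With 1 library per group the difference between these classes was not tested.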

How the results depend on the processing

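No paired analysis was possible because each group was 1 library and the labels give no replicate numbers. Of the 23 calls in classes and the 1 over all cells, a threshold of 2-fold kept 9 of 24, TMM factors 21 of 24, size factors 20 of 24, at least 1000 UMIs per cell 21 of 24, members among the clustering genes 19 of 24 and Leiden resolution 0.5 kept 10 of the 18 that could be computed there, with no counterpart of fibroblast-like cluster 5. Thinning to 1000 UMIs left 10 of them with enough UMIs and kept 4. Vegfa in monocyte-like cells (0.465 to 0.610), Vegfc (0.217 to 0.292) and Kdr (0.346 to 0.430) in fibroblast-like cluster 5 and Vegfb in cycling-like cluster 19 (0.383 to 0.503) were called wherever a call could be made. The calls lost most often were Nrp2 (9 settings) and Kdr (6) in blood endothelial-like cells and Kdr in macrophage-like cells (7), and each of the others was lost under 3 or fewer.

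Counts of members called changed as follows, and where no construction is named the cause was not tested. Thinning gave 0 lower over all cells, 1 lower in blood endothelial-like cells, 0 higher and 0 lower in each fibroblast-like cluster, and 1 higher and 4 lower over all pairs. It left some members too few UMIs to compare, but Vegfa in cluster 3 (1.33) and Vegfc over all cells (0.563) were compared and lost their calls. The stricter 2-fold threshold gave 0 lower in blood endothelial-like cells, 0 higher and 1 lower in cluster 3, 0 higher and 2 lower in cluster 5, and 2 higher and 6 lower over all pairs. Lower members in blood endothelial-like cells numbered 0 with at most 10% mitochondrial UMIs, and 1 with TMM factors, with size factors and at Leiden resolution 0.5. Leiden resolution 0.5 also gave 4 lower in cluster 3 and 2 higher over all pairs. A floor of 100 UMIs, which leaves fewer genes, gave 1 lower in cluster 3, 0 higher in cluster 5 and 2 higher over all pairs. Members among the clustering genes gave 1 lower in cluster 3, and its largest sub-cluster 0 higher and 1 lower. Nrp1 in B cell-like cells turned to 0.992 as a mean over cells, and Vegfb in Trem2 macrophage-like cells to 1.29 after thinning. Low UMI counts limit Vegfc, Pgf, Flt4 and Kdr outside their main classes.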
